A study of Mus musculus with 9 samples.

Results

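The immediate early genes examined were Fos, Fosb, Junb, Egr1, Egr2, Nr4a1, Arc, Npas4, Ier2 and Dusp1. They were taken by symbol, and the 10 of them were found among the 26602 genes with a count in at least 1 mouse. The RNA came from midbrain tissue that included the substantia nigra pars compacta (SNpc), with 1 bulk library per mouse. DJ-1+/+ mice (n = 4) carried the normal Park7 gene, which encodes DJ-1. DJ-1-/- mice (n = 5) were homozygous for a targeted Park7 allele, present in every cell of the body and backcrossed to C57BL/6. Both genotypes were 3 to 4 months of age, untreated, and offspring of heterozygous parents, and both were kept in the same cages. The mice were killed with CO2 or isoflurane and the dissected tissue was frozen on dry ice. The time of day, the interval between death and freezing and the sex of each mouse are not given in the sources used here.

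Immediate early genes are transcribed within minutes of a stimulus from factors that are already in the cell, without new protein synthesis. In neurons, calcium entry through synaptic receptors and channels activates the kinases that phosphorylate CREB and the partners of serum response factor, and these bind the promoters of the genes. The mRNAs are short-lived, so that their level in a frozen brain region is known to follow the last events before death, handling included. Fos, Fosb and Junb encode subunits of the AP-1 transcription factor, Egr1 and Egr2 encode zinc finger factors, and Nr4a1 and Npas4 encode an orphan nuclear receptor and a neuronal bHLH-PAS factor. Arc encodes a synaptic protein that drives the removal of AMPA receptors, Ier2 encodes a nuclear protein, and Dusp1 encodes a phosphatase that inactivates MAP kinases.

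CREB and serum response factor are known to act through short elements in the promoters of such genes. The bases printed here are the 250 that precede the start site of a transcript annotated in RefSeq (GRCm38.p6), written 5′ to 3′ along the gene, for the 5 members with a promoter window whose levels are compared below. For Nr4a1 and Dusp1 this start site lies well inside the longer GENCODE M21 locus given below, not at its outer end. Capitals mark TGACG, the core of the cyclic AMP response element (CRE) to which CREB binds, or its reverse complement CGTCA.

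Fos (chr12:85473640-85473889, + strand): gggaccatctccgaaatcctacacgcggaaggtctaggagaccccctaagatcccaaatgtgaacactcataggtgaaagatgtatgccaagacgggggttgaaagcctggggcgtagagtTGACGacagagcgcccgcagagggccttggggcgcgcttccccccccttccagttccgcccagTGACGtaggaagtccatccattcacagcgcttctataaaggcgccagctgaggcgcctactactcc

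Nr4a1 (chr15:101266596-101266845, + strand): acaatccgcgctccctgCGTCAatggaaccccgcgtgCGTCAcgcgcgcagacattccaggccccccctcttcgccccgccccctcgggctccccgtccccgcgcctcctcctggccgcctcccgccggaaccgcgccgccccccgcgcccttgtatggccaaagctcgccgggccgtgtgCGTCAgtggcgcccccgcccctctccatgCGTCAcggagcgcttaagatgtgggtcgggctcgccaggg

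Dusp1 (chr17:26508473-26508722, − strand): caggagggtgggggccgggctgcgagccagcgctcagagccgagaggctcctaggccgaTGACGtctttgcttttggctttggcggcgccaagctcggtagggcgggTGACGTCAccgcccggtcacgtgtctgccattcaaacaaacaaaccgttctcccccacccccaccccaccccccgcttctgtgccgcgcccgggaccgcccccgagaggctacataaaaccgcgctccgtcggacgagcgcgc

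Fosb (chr7:19310046-19310295, − strand): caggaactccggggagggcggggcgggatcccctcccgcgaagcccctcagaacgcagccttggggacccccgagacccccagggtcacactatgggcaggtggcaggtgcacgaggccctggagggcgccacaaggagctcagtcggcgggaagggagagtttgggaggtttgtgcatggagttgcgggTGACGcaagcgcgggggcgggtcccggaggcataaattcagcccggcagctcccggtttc

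Junb (chr8:84978749-84978998, − strand): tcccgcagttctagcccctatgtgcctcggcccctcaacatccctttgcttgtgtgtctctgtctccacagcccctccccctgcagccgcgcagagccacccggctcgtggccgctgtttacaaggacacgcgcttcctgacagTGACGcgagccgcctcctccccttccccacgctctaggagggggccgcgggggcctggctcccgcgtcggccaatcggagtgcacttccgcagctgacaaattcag

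The Dusp1 run holds the whole palindromic element TGACGTCA, from −143 to −136 relative to the start site, where matches on both strands overlap. In Fos the core begins at −129 and at −66, and in Nr4a1 its reverse complement begins at −233, −213, −69 and −40. Fosb and Junb each hold a single copy, at −60 and −106. Of the 10 members, 7 had a RefSeq window (Fos, Fosb, Junb, Egr2, Nr4a1, Npas4 and Dusp1), which runs on to 50 bases after the start site, and Egr2 had several. A gene was counted where any of its windows held the letters, on either strand. The core was found in all 7, though in Egr2 not in every window, against 23.0% of the 27025 genes with a window of this length and 20.8% of the 32851 windows. TGACGTCA was found in 1 of the 7 and in 2.03% of all genes. The AP-1 site TGANTCA was in 0 of the 7 and in 8.97% of all genes, the Egr site GCGNGGGCG was in 2 (Fosb and Nr4a1) and in 6.27%, and the CArG box, which serum response factor binds, was in 1 (Egr2) and in 1.81%. A match describes these letters in this window and is not a measurement of binding. Sequence farther upstream was not searched, so the lack of a match says nothing of sites there.

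The libraries read a tag near the polyadenylated end of each transcript (QuantSeq), with unique molecular identifiers that let copies of a molecule be counted once, so counts do not grow with transcript length and levels can be compared between genes. Levels are given in cpm, the count per 1000000 counted molecules of the library. Between 841974 and 886085 molecules were counted per DJ-1+/+ library and between 967751 and 1098125 per DJ-1-/- library, so that every knockout library had a higher total. Depth here means this total, and the numbers of sequenced reads were not compared. A count of 3, used as the lowest level that can be told from absence, corresponds to 2.73 to 3.56 cpm and covers counting error only. The targeted gene itself, Park7, had 105 to 132 counts per DJ-1+/+ library and 14 to 29 per DJ-1-/- library, with a log2 fold change of −2.71. Markers of other tissue moved with some libraries. The summed level of 6 cerebellar markers was 975 cpm in DJ-1+/+ replicate 1 and 312 to 439 cpm in the others, and that of 6 choroid plexus markers was 306 cpm in DJ-1+/+ replicate 1, 633 cpm in DJ-1+/+ replicate 4 and 67.2 to 169 cpm in the others, with 3 of these 6 genes at 0 in at least 1 library. The 8 dopaminergic markers summed to 353 to 772 cpm over the DJ-1+/+ and 592 to 830 cpm over the DJ-1-/- libraries, and 1 of them was at 0 in a library. Between genotypes, an unadjusted p under 0.05 was reached by 4 of the 8 dopaminergic markers (median log2 fold change 0.51), 4 of the 6 choroid plexus markers (−1.86) and 3 of the 6 cerebellar markers (−1.45), against 2.83% of all genes, and their part in the results on the members was not tested. In bulk tissue, fewer cells of a type and less RNA per cell cannot be told apart.

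The members differed widely in level. Egr1 was the most abundant, at 80.8 ± 22.4 cpm (SD, n = 4) in DJ-1+/+ mice, followed by Dusp1 (56.5 ± 16.0 cpm), Arc (53.3 ± 21.6 cpm), Junb (46.7 ± 6.50 cpm) and Fos (36.1 ± 15.5 cpm). Nr4a1 stood at 20.5 ± 5.33 cpm, Fosb at 9.27 ± 4.01 cpm and Ier2 at 5.49 ± 6.61 cpm. From Dusp1 to Fos, neighbours in this order lay closer together than the larger of their SDs, as did Fosb and Ier2, while Egr1 and Dusp1, Fos and Nr4a1, and Nr4a1 and Fosb lay farther apart than that. Npas4 and Egr2 were at or under the level of 3 counts on average in both genotypes, so their counts are given and no fold.

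**Figure D1:**
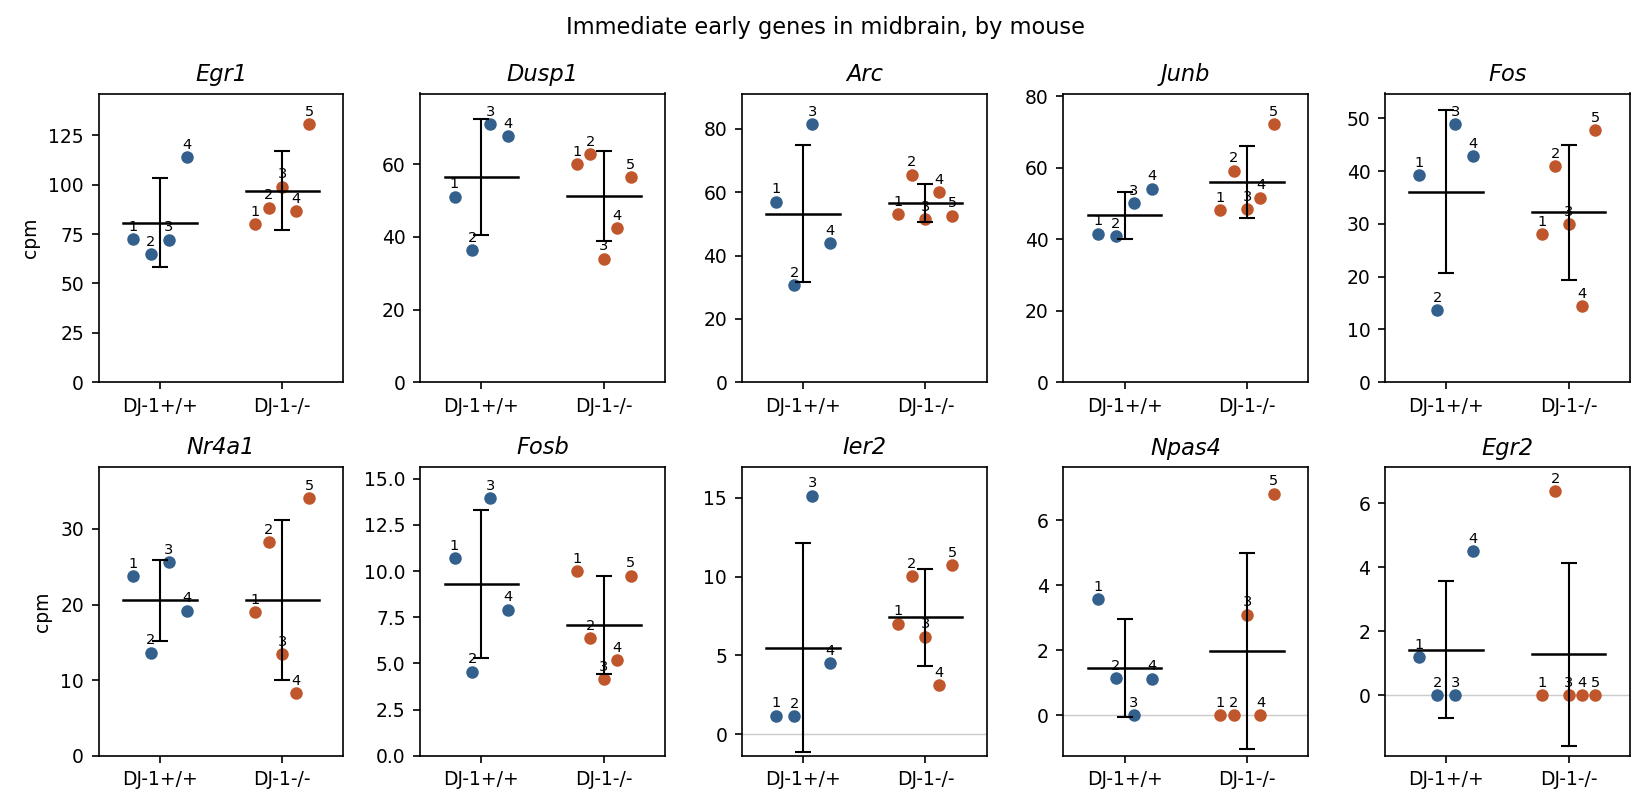
Level of each immediate early gene in each mouse, in cpm on a linear axis, for DJ-1+/+ (blue, n = 4) and DJ-1-/- mice (orange, n = 5). Points are mice numbered by replicate, and the bar and whiskers are mean ± SD. The genotypes overlap in all 10 panels, and DJ-1+/+ replicate 2 is the lowest DJ-1+/+ mouse in the 8 panels from Egr1 to Ier2.

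Fos (12:85473890-85477273, plus strand, GRCm38), the prototype of the group and a partner of Jun proteins in AP-1, showed no difference between genotypes beyond the spread between mice. It stood at 39.2, 13.6, 48.9 and 42.9 cpm in DJ-1+/+ replicates 1 to 4, and at 28.0, 41.0, 29.9, 14.5 and 47.7 cpm in DJ-1-/- replicates 1 to 5. Within each genotype 1 mouse lay far under the others, DJ-1+/+ replicate 2 and DJ-1-/- replicate 4, with 12 and 14 counts against 28 to 49 in the rest. The highest mouse was 3.58-fold above the lowest, and both were DJ-1+/+. The log2 fold change of DJ-1-/- over DJ-1+/+ was −0.16 (standard error 0.33, 95% interval −0.85 to 0.54, unadjusted p = 0.643, edgeR's quasi-likelihood test).

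Fosb (7:19302696-19310051, minus strand), whose protein takes the place of Fos in AP-1, was lower in level and closer to the limit of counting. Its levels were 10.7, 4.55, 14.0 and 7.90 cpm in the DJ-1+/+ animals, and 10.01, 6.37, 4.13, 5.17 and 9.74 cpm in the DJ-1-/- animals, from 4 to 12 counts each. DJ-1+/+ replicate 2 was again the lowest of its genotype, and the genotypes overlapped over most of their range. The log2 fold change was −0.37 (standard error 0.41, 95% interval −1.24 to 0.49, unadjusted p = 0.37).

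Junb, a Jun protein that dimerises with Fos, was the steadiest of the abundant members. It stood at 41.6, 40.9, 50.03 and 54.2 cpm in the DJ-1+/+ animals, and at 48.0, 59.2, 48.5, 51.7 and 72.1 cpm in the DJ-1-/- animals. DJ-1-/- replicate 5 was the highest, DJ-1+/+ replicates 1 and 2 were under every DJ-1-/- mouse, and the other DJ-1+/+ mice lay among them. Between genotypes the log2 fold change was 0.26 (standard error 0.16, 95% interval −0.08 to 0.61, unadjusted p = 0.125). Junb (8:84974484-84978718, minus strand, GRCm38) overlaps Prdx2 on the other strand, and the strand setting of the counting is not given, so reads from the pair may not be separated.

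Egr1, which encodes a zinc finger factor that also serves as a marker of neuronal activity, had the highest level in every mouse but 1, DJ-1+/+ replicate 3, where Arc was higher. Its levels were 72.4, 64.8, 72.1 and 114 cpm in the DJ-1+/+ animals, and 80.1, 88.3, 99.0, 86.8 and 131 cpm in the DJ-1-/- animals. Of the DJ-1+/+ mice, 3 lay under every DJ-1-/- mouse and replicate 4 lay above all DJ-1-/- mice except replicate 5. The log2 fold change was 0.26 (standard error 0.17, 95% interval −0.10 to 0.63, unadjusted p = 0.15). Without DJ-1+/+ replicate 4, the library with the most choroid plexus RNA, it was 0.47 (unadjusted p = 0.00797, adjusted p = 1), and with the level of Xist, which marks female tissue, as a covariate it was 0.44 (unadjusted p = 0.00621, adjusted p = 1). Xist was counted 0 to 2 times in 3 mice, DJ-1+/+ replicate 1, DJ-1+/+ replicate 4 and DJ-1-/- replicate 5, and 146 to 193 times in the other mice, so the mice highest for Egr1 were among those without it. With 1 library left out the value ran from 0.12, without DJ-1-/- replicate 5 (unadjusted p = 0.444), to that 0.47, and without DJ-1+/+ replicate 2 it was 0.16 (unadjusted p = 0.391). The part of that tissue and of sex in the level of Egr1 was not tested beyond these fits. Its relative Egr2 (10:67535475-67542188, plus strand) was listed in only 3 of the 9 mice, with 1 and 4 counts in the DJ-1+/+ mice numbered 1 and 4 and with 7 in the DJ-1-/- mouse numbered 2.

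Nr4a1 (15:101254269-101274795, plus strand), an orphan nuclear receptor, had nearly the same mean in both genotypes and a wide range in DJ-1-/- mice. It stood at 23.8, 13.6, 25.6 and 19.2 cpm in the DJ-1+/+ animals, and at 19.0, 28.2, 13.4, 8.27 and 34.1 cpm in the DJ-1-/- animals. DJ-1-/- replicates 4 and 5 held the lowest and the highest level of all, 4.13-fold apart. The means were 20.5 ± 5.33 cpm and 20.6 ± 10.6 cpm (SD, n = 4 and 5), with a log2 fold change of 0.019 (standard error 0.35, 95% interval −0.71 to 0.75, unadjusted p = 0.957). Npas4 (19:4984355-4990316, minus strand), a factor induced selectively by calcium entry, had 3, 1, 0 and 1 counts in DJ-1+/+ and 0, 0, 3, 0 and 7 counts in DJ-1-/- mice, and only DJ-1-/- replicate 5 exceeded 3 counts.

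Arc (15:74669083-74672570, minus strand), the synaptic member, was more variable among DJ-1+/+ than among DJ-1-/- mice. It stood at 57.0, 30.7, 81.4 and 44.0 cpm in the DJ-1+/+ animals, and at 53.1, 65.6, 51.6, 59.9 and 52.6 cpm in the DJ-1-/- animals. Every DJ-1-/- mouse lay between DJ-1+/+ replicates 4 and 3, while replicate 2 of that genotype was the lowest of all. The SDs were 21.6 cpm (n = 4) and 6.02 cpm (n = 5), a difference in spread that was not tested. Between genotypes the log2 fold change was 0.090 (standard error 0.21, 95% interval −0.35 to 0.53, unadjusted p = 0.672).

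Ier2 (8:84661331-84662852, minus strand), which encodes a nuclear regulator of transcription, was counted 1, 1, 13 and 4 times in DJ-1+/+ and 7, 11, 6, 3 and 11 times in DJ-1-/- mice. DJ-1+/+ replicate 3 held the highest count and replicates 1 and 2 the lowest, so the DJ-1+/+ mice enclosed all DJ-1-/- mice. In the fit the log2 fold change came to 0.44 (standard error 0.60, 95% interval −0.84 to 1.71, unadjusted p = 0.479), and without DJ-1+/+ replicate 3 it was 1.64 (unadjusted p = 0.0167, adjusted p = 1). Leaving out DJ-1+/+ replicate 2 instead gave 0.096 (unadjusted p = 0.872), and leaving out replicate 1 gave 0.12 (unadjusted p = 0.848), so the value hung on single DJ-1+/+ libraries with few counts.

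Dusp1, the phosphatase that ends MAP kinase signalling, is induced by glucocorticoids as well as by activity. It stood at 51.1, 36.4, 71.0 and 67.7 cpm in the DJ-1+/+ animals, and at 60.1, 62.8, 34.0, 42.4 and 56.5 cpm in the DJ-1-/- animals. DJ-1-/- replicate 3 and DJ-1+/+ replicate 2 were the lowest, and DJ-1+/+ replicates 3 and 4 the highest. For Dusp1 the log2 fold change was −0.14 (standard error 0.21, 95% interval −0.58 to 0.31, unadjusted p = 0.522). The annotated Dusp1 locus (17:26505590-26562128, minus strand) overlaps Ergic1 on the other strand.

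Of the 10 members, 0 reached an unadjusted p under 0.05 by edgeR, against 2.83% of the 18127 genes tested, and DESeq2 called 0 as well. None passed after Benjamini-Hochberg adjustment over all genes (adjusted p = 1 for each member), where 0.00552% of the genes did. The levels of the genotypes did not overlap for 0 members, against 1.25% of genes, and the exact two-sided permutation test over mice gave p between 0.143 (Junb) and 1 (Egr2), where 4 mice against 5 allow 0.0159 at the least and 3.67% of all genes had a p under 0.05. Of the 8 members above the level of 3 counts, 5 had a log2 fold change above 0 and 3 below, where 51.9% of all genes were above and 48.1% below. With Npas4 and Egr2 included, 6 were above and 4 below. Their median was 0.055 on the log2 scale, against 0.0079 over all genes tested. An interval that includes 0 does not show that the genotypes were alike.

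**Figure D2:**
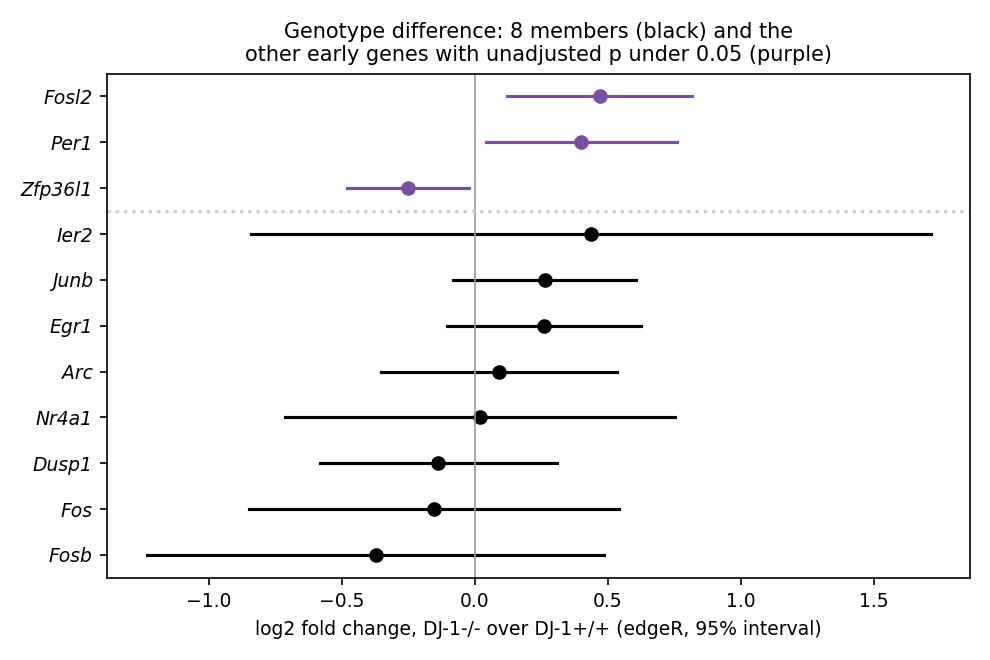
Log2 fold change of DJ-1-/- over DJ-1+/+ mice with its 95% interval from edgeR, for the 8 members above the level of 3 counts (black) and for Fosl2, Per1 and Zfp36l1, the genes of the other lists with an unadjusted p under 0.05 (purple). The intervals of all 8 members include 0, from −0.37 for Fosb to 0.44 for Ier2, while Fosl2 is at 0.47.

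The members varied between mice of the same genotype by more than most genes did. The spread within genotypes was expressed as a variance, in multiples of the variance from counting, with 1 standing for a gene that varies by counting alone. This ratio rises with the count at the same relative variation, and the genes compared were not matched for level. Over the 12741 genes at 10 cpm or more its median was 1.11 and its 90th percentile 3.03. Fos was at 5.39, Egr1 at 4.74, Arc at 3.66, Nr4a1 at 3.59 and Dusp1 at 3.41, all above that percentile, and Junb was at 1.39, the only one of the 6 members at this level that was not. Fosb, at lower level, was at 1.22.

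Without DJ-1+/+ replicate 2 and DJ-1-/- replicate 4, the 90th percentile over all genes was 2.85. Fos came to 1.62, Arc to 2.57, Nr4a1 to 2.32, Dusp1 to 2.53 and Junb to 1.65, and Egr1, at 5.37, was the 1 of these 6 members above that percentile. The 2 libraries were chosen as the lowest for Fos, so a fall for Fos was fixed by the choice. The 2 libraries held the lowest values together also for other genes, namely for 891 of the 12741 genes (6.99%), against 786 (6.17%) for the next pair, DJ-1+/+ replicate 4 and DJ-1-/- replicate 5. DJ-1+/+ replicate 2 also had the lowest sums of the forebrain markers (114 cpm against 122 to 199 cpm in the others) and of the oligodendrocyte markers (1299 cpm against 1392 to 1710 cpm). Its sum of blood markers was the highest (664 cpm against 382 to 536 cpm). Its pan-neuronal sum was the lowest by a small margin (1289 cpm against 1296 to 1378 cpm). Of the 6 forebrain markers, 4 were at 0 in at least 1 library and 4 could be tested. Both libraries had the highest sums of the dopaminergic markers, at 772 and 830 cpm against 759 cpm at most in the others, and the lowest of the choroid plexus markers, at 79.6 and 67.2 cpm against 88.4 cpm at least. DJ-1-/- replicate 4 alone had the highest pan-neuronal sum by a small margin (1378 cpm against 1373 cpm at most in the others), and its forebrain sum was 165 cpm. The part of tissue composition in the levels of the members was not tested.

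Summed over the 10 members, the level was 302, 207, 378 and 360 cpm in the DJ-1+/+ animals, and 305, 368, 290, 272 and 421 cpm in the DJ-1-/- animals. DJ-1+/+ replicate 2 was the lowest and DJ-1-/- replicate 5 the highest. In DJ-1+/+ replicate 2 all 8 members above the level of 3 counts were under their own mean over the 9 mice, and in DJ-1-/- replicate 5 all but 1 were above it.

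Across the 9 mice the levels of the members tended to be high or low together, although no single pair passed adjustment. Pearson's r on log2(cpm + 1) after TMM scaling was above 0 for 40 of the 45 pairs, with a median of 0.40, and above 0 for all 28 pairs of the 8 members above the level of 3 counts, with a median of 0.53. Over all 81160170 pairs of the 12741 genes at 10 cpm or more, 50.1% were above 0 and the median was 0.001, and of the 15 pairs of the 6 members at that level, 15 were above 0 with a median of 0.50. Without DJ-1+/+ replicate 2 and DJ-1-/- replicate 4, 23 of the 28 pairs were above 0, with a median of 0.35. Of the 15 pairs at 10 cpm or more, 12 were then above 0 with a median of 0.38, against 50.01% of all pairs at that level. Fos and Nr4a1 were the closest pair (r = 0.86, exact permutation p = 0.00243, adjusted over 45 pairs 0.104, n = 9), with Spearman's rho of 0.80 (exact permutation p = 0.0138, adjusted 0.35, n = 9). Without the 2 mice farthest from the median of Fos, DJ-1+/+ replicate 2 and DJ-1-/- replicate 4, r was 0.76. Fosb and Dusp1 followed with r = 0.81 (exact permutation p = 0.0105, adjusted 0.158, n = 9), which was 0.66 without the 2 mice farthest from the median of Fosb, and with rho of 0.70.

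Egr1 was closest to Junb (r = 0.84, exact permutation p = 0.00462, adjusted 0.104, n = 9; rho 0.73). Without DJ-1-/- replicate 5 and DJ-1+/+ replicate 2, the mice farthest from the median of Junb, r came to 0.52, so the relation rested in part on them. With Fosb, Arc and Dusp1, the r of Egr1 was 0.01, 0.05 and 0.22. After each genotype's mean was subtracted, r was 0.86 for Fos and Nr4a1 and 0.79 for Junb and Egr1. Of the 45 pairs, 8 had an unadjusted p under 0.05 and 0 an adjusted one. Each of the 8 was among the 28 pairs without Npas4 or Egr2. The share of all gene pairs with such a p was not computed, so whether 8 is unusual was not tested. All pairs share the same libraries and their depth and scaling, and neither genotype has the 6 mice needed for an r of its own. Without those same 2 low libraries the median r over the 45 pairs was 0.23, and Egr1 and Arc were at −0.63.

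**Figure D3:**
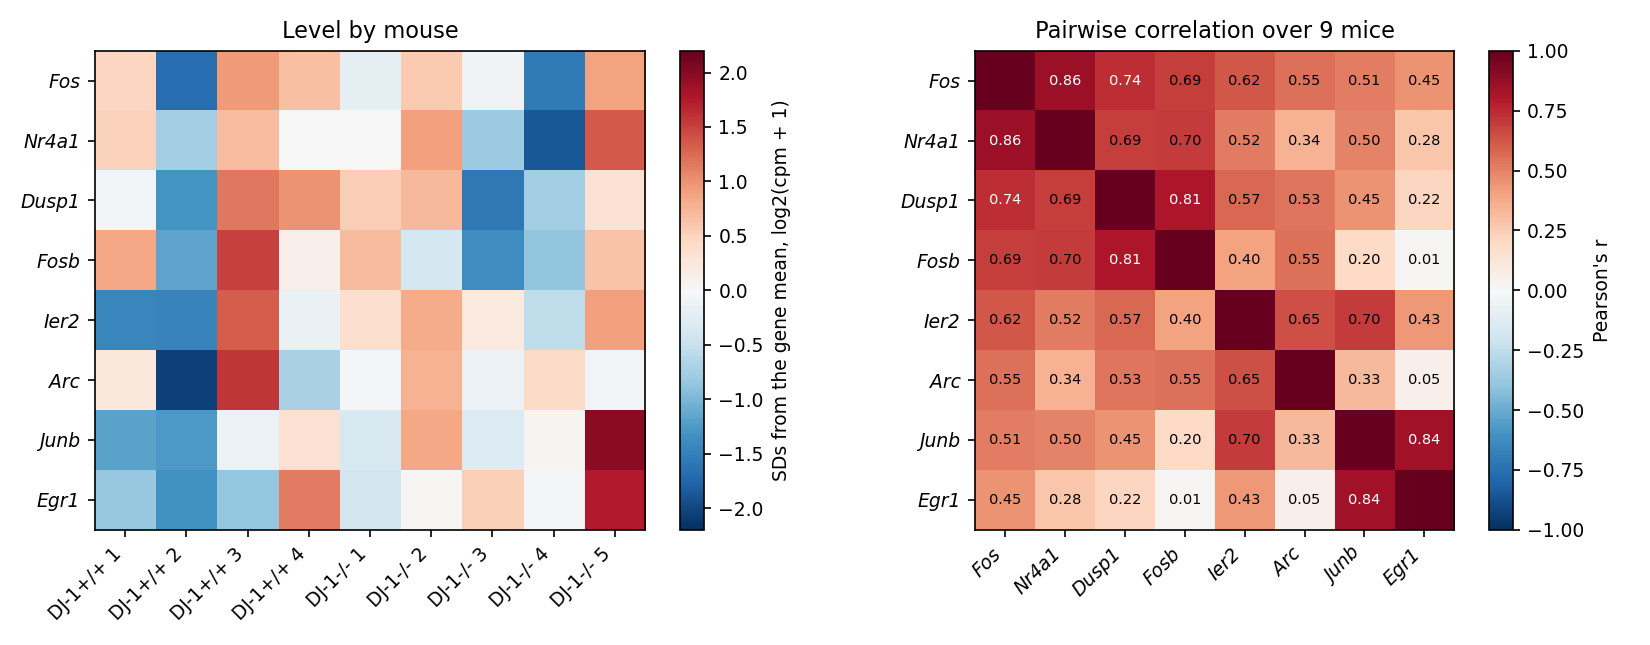
Left, level of the 8 members above the level of 3 counts in each mouse, as the number of SDs from the mean of the gene on log2(cpm + 1), red above and blue below. Right, Pearson's r between each pair over the 9 mice after TMM scaling. DJ-1+/+ replicate 2 is blue in every row, and the highest r are 0.86 for Fos with Nr4a1 and 0.84 for Junb with Egr1.

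**Figure D4:**
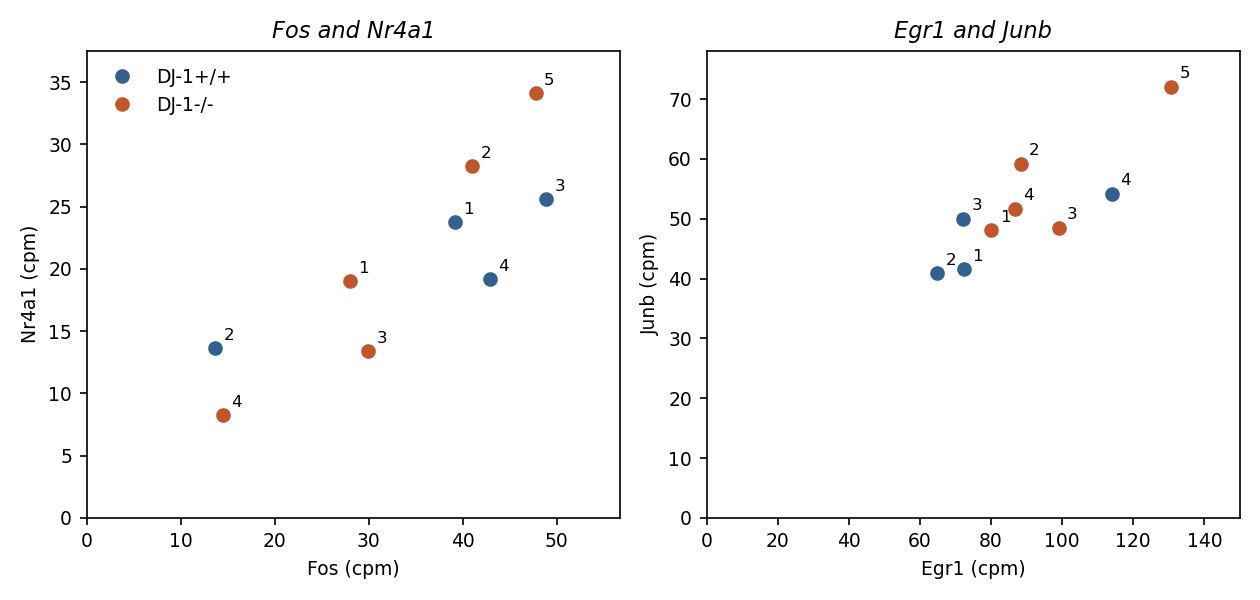
Levels in cpm of Nr4a1 against Fos (left) and of Junb against Egr1 (right), 1 point per mouse with its replicate number, DJ-1+/+ in blue and DJ-1-/- in orange, on linear axes from 0. In the left panel DJ-1+/+ replicate 2 and DJ-1-/- replicate 4 sit lowest for Fos (13.6 and 14.5 cpm) and mice of both genotypes lie along the same trend. In the right panel DJ-1-/- replicate 5 sits apart at 131 and 72.1 cpm.

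Among 12735 other genes at 10 cpm or more, those whose levels followed the mean of the standardised members most closely over the 9 mice were D16Ertd472e (r = 0.96), F730043M19Rik (0.93), Socs2, an inhibitor of cytokine signalling (0.92), Abcc8, the sulphonylurea receptor of ATP-sensitive potassium channels (0.92), Arid2, a chromatin remodelling subunit (0.92), Rnf180, Zfp780b, the respiratory chain subunit Ndufs3, the elongation factor Ell2 and Zfp64 (0.91 each). That mean was taken over all 10 members. The 6 members at 10 cpm or more, which are a part of it, had an r with it from 0.58 (Arc) to 0.94 (Fos). The values of the other genes named here are the highest of 12735 over 9 mice and carry no test. None of these genes was on the list of further early genes.

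Other activity-induced genes were read from a list of 58, of which 57 could be tested. Over these the median on the log2 scale was 0.00044, with 29 above and 28 below 0, and 3 (2 higher and 1 lower in DJ-1-/- mice) had an unadjusted p under 0.05, against 1.57% of all genes higher and 1.26% lower. After adjustment 0 of them passed.

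Fosl2, which encodes the AP-1 subunit Fra-2, was higher in DJ-1-/- mice before adjustment. It stood at 33.3, 27.3, 27.9 and 28.2 cpm in the DJ-1+/+ animals, and at 41.0, 47.4, 40.2, 35.1 and 38.0 cpm in the DJ-1-/- animals. The genotypes did not overlap, which held for 1.25% of all genes and for no other gene of this list. The means were 29.2 ± 2.75 cpm (SD, n = 4) and 40.4 ± 4.53 cpm (SD, n = 5), with a log2 fold change of 0.47 (standard error 0.16, 95% interval 0.12 to 0.82). The unadjusted p was 0.0113 and the adjusted p 1 in edgeR's test, and the exact permutation p was 0.0159 (n = 4 and 5), the smallest this design allows. Within genotypes the variance of Fosl2 was 0.40 times that from counting, far from the 5.39 of Fos. DJ-1+/+ replicate 2 and DJ-1-/- replicate 4, low for Fos, were the lowest of their genotypes for Fosl2 by a small margin.

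Per1, a clock gene that is induced by activity and by glucocorticoids, was at 40.8 ± 10.01 cpm in the DJ-1+/+ animals and 53.9 ± 5.92 cpm in the DJ-1-/- animals (SD, n = 4 and 5), a log2 fold change of 0.40 (standard error 0.17, unadjusted p = 0.0311, adjusted p = 1, edgeR). Zfp36l1, which encodes a protein that destabilises AU-rich mRNAs, was at 98.7 ± 12.3 and 83.1 ± 8.71 cpm, with a log2 fold change of −0.25 (standard error 0.11, unadjusted p = 0.0339, adjusted p = 1, edgeR). Per1 lost its call in 6 of 19 alternative fits, DESeq2 among them (unadjusted p = 0.0541), and without DJ-1+/+ replicate 1 or 3 or DJ-1-/- replicate 2 or 5 its unadjusted p was between 0.0526 and 0.123. Zfp36l1 lost its call in 8 of 19, among them DESeq2 (unadjusted p = 0.0602) and the fits without DJ-1+/+ replicate 2 or 4 or DJ-1-/- replicate 1 or 2 (unadjusted p between 0.0589 and 0.148). The extremes of the list were Dusp5, a phosphatase of nuclear ERK, at −0.86 (unadjusted p = 0.0606) and Egr3 at 0.79 (unadjusted p = 0.142). Dusp5 was at −0.26 (unadjusted p = 0.526) without DJ-1+/+ replicate 1 and at −1.18 (unadjusted p = 0.00481) without replicate 2, and its unadjusted p was under 0.05 in 5 of 19 alternatives, DESeq2 among them (unadjusted p = 0.0496). Egr3 was at 0.33 (unadjusted p = 0.525) without DJ-1-/- replicate 2 and at 1.29 (unadjusted p = 0.034) without DJ-1+/+ replicate 4, and was called in 2 of 19. Jun and Jund, the other Jun partners in AP-1, were at −0.11 and 0.0097 on the log2 scale.

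Of the kinases and factors upstream of these genes, 35 of 36 had a count and were tested. An unadjusted p under 0.05 was reached by 0 of them, against 2.83% of all genes tested. Their log2 fold changes ran from −0.44 for Crtc2, a coactivator of CREB, to 0.24 for Rps6ka3, a kinase of the ERK pathway, with 19 above and 16 below 0 and a median of 0.013. A list of 16 genes induced by glucocorticoids, which are known to rise in stress, held 1 with an unadjusted p under 0.05, Per1, against the same 2.83%. Of these 16 genes, 13 were above and 3 below 0 (51.9% of all genes were above), with a median of 0.11. Cdkn1a was the lowest of them at −0.11. With 1 library left out Crtc2 ran from −0.79 to −0.13 and Rps6ka3 from 0.098 to 0.33, and Rps6ka3 had an unadjusted p of 0.0446 with Xist as a covariate and 0.0407 without DJ-1+/+ replicates 1 and 4. No gene of these 2 lists passed the adjustment over all genes.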

How the data were processed

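RNA of midbrain tissue, SNpc included, was sequenced as 3′ libraries with molecular identifiers from 4 DJ-1+/+ and 5 DJ-1-/- animals. The deposited values are UMI counts per gene and mouse, made by the authors as whole numbers without normalization. The submitters' processing notes name fastp 0.20.0, STAR 2.7.3a, featureCounts 2.0.0 and UMI-tools 1.0.0 with GRCm38, and the annotation release and strand setting are not given in the sources used here. Counts were joined by Ensembl identifier, with 0 for a gene not listed. Symbols and positions are from GENCODE M21 (26576 of 26602 genes matched). The older names Cyr61, Ctgf, Mkl1 and Mkl2 were read as Ccn1, Ccn2, Mrtfa and Mrtfb. Totals ran from 841974 to 1098125 counts. The lowest level that can be told from absence covers counting error only. The intervals of the fold changes come from edgeR's fit, which also takes in the spread between mice.

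The 18127 genes whose counts summed to 10 or more were tested with edgeR 4.0.16 in R 4.3.3 (TMM, estimateDisp, glmQLFit, glmQLFTest, genotype as the only term, Benjamini-Hochberg adjustment). A standard error is the log2 fold change divided by the root of the F statistic. The exact two-sided permutation test doubled the smaller tail over the 126 splits of 9 mice, and p of a correlation came from 362880 pairings. Spread over counting error is the chi-square of a gene's counts within genotypes per degree of freedom. Fits were checked on simulated data.

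Genes named are the 10 members, Park7, the genes of each other list with an unadjusted p under 0.05 and the list's extremes, and the 10 genes most alike to the members. Jun, Jund and the genes under other observations were added after their values were seen. The members and lists were chosen with earlier results of these data known. Replicate numbers come from the labels, and each library is a different animal. Pairs of libraries of 1 genotype differed by a chi-square per degree of freedom of 1.07 to 2.27. A value near 1 is what counting alone gives, also between copies, so these values cannot tell a copy from a separate animal. No library was treated as a copy, which rests on the labels. Alternatives were DESeq2 1.42.0, other scalings and filters, thinned counts, a replicate block, the level of Xist as a covariate, and libraries left out. Leaving out DJ-1+/+ replicate 2 and DJ-1-/- replicate 4 was chosen after seeing the data.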

Additional observations from a re-analysis of the deposited data

Results flagged for a closer look

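Of 38 groups of 4 or 5 mice examined for a mouse far from the rest, 3 were marked by Dixon's criterion, where about 1.9 are given by chance at 1 in 20. Egr1 was at 114 cpm in DJ-1+/+ replicate 4, with the other DJ-1+/+ mice at 64.8 to 72.4 cpm. Egr2 was at 6.37 cpm (7 counts) in DJ-1-/- replicate 2, with 0 counts in the other DJ-1-/- mice. Fosl2 was at 33.3 cpm in DJ-1+/+ replicate 1, with the other DJ-1+/+ mice at 27.3 to 28.2 cpm, and this mouse too was under every DJ-1-/- mouse.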

How the results depend on the processing

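No member passed the adjusted threshold under any of the 19 alternative fits, and RLE size factors, library totals and thinned counts left the sign of the 8 members above the level of 3 counts as it was. Egr2 and Npas4, with 12 and 15 counts over the 9 mice, have no reported fold; the sign of their fitted value turned in 6 of 14 and 1 of 17 alternatives that tested them. The number of members with an unadjusted p under 0.05, 0 in the report, was 1 without a filter on low counts (Egr1, 0.27, unadjusted p = 0.0284), 2 with Xist as a covariate (Egr1 and Junb, the latter 0.35, unadjusted p = 0.0465) and 1 without DJ-1+/+ replicates 1 and 4 (Egr1, 0.51, unadjusted p = 0.0169), and 0 to 1 over the fits that left out 1 library. The members below 0, 4 in the report, were 2 under filterByExpr, which tested fewer members, 2 with Xist, and 2 to 6 with 1 library left out. The median pairwise r was 0.23 without DJ-1+/+ replicate 2 and DJ-1-/- replicate 4, 0.26 without DJ-1+/+ replicate 2 alone, and 0.26 to 0.43 with 1 library left out.

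Other early genes with an unadjusted p under 0.05, 3 in the report, were 5 without a filter and 1 to 5 with 1 library left out (1 without DJ-1-/- replicate 2, 5 without DJ-1-/- replicate 1). Upstream regulators, 0 in the report, were 2 with Xist, 1 with the replicate block, 3 without DJ-1+/+ replicates 1 and 4, 1 without DJ-1+/+ replicate 2 and DJ-1-/- replicate 4, and 0 to 2 with 1 library left out. Glucocorticoid-induced genes, 1 in the report, were 0 with DESeq2, 2 without a filter, 2 with Xist, 2 without DJ-1+/+ replicates 1 and 4, and 0 to 2 with 1 library left out.

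The sign of a member's log2 fold change turned for Fos with Xist (0.038) and without DJ-1+/+ replicates 1 and 4 (0.059), for Nr4a1 with the block (−0.28), for Ier2 without DJ-1+/+ replicates 1 and 4 (−0.11) and for Arc without DJ-1+/+ replicate 2 and DJ-1-/- replicate 4 (−0.13). DJ-1-/- replicate 5 has no DJ-1+/+ mouse of its number, so it adds nothing to the fold change of the block fit. Leaving that mouse out without a block put Nr4a1 at −0.24. Crtc2 and Cdkn1a were at 0.061 and 0.054 without DJ-1+/+ replicates 1 and 4. With 1 library left out, Fos ran from −0.43 to 0.020, Arc from −0.11 to 0.37, Nr4a1 from −0.24 to 0.20 and Cdkn1a from −0.22 to 0.11. The cause was not tested. Fosl2 kept an unadjusted p under 0.05 in all 19 alternatives. The exact permutation p of Per1 was 0.0635 on TMM-scaled cpm. Over all genes, 513 had an unadjusted p under 0.05 in the report's fit, 235 with DESeq2, 802 without a filter and 338 under filterByExpr, and 1, 1, 36 and 1 an adjusted one, against 8 with the block.

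The replicate numbers did not pair the mice. The deviations of same-numbered mice from their group means correlated at 0.27, 0.04, −0.10 and −0.18, and only DJ-1+/+ replicate 1 correlated best with its own number. Fos was at 12 to 49 counts per mouse and Fosb, Ier2, Egr2 and Npas4 at under 15. Within genotypes the variance of Fosb was 1.22 times that from counting. That ratio was 5.39 for Fos, 3.67 for Ier2, 4.80 for Egr2 and 3.26 for Npas4. Depth went with genotype, since every DJ-1-/- total was above every DJ-1+/+ total. With counts thinned to the shallowest total, the 8 members above the level of 3 counts kept their sign. In that fit 0 members had an unadjusted p under 0.05 (edgeR). Anything else that differed with the totals was not tested.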

Other observations

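Among the other activity-induced genes and their regulators, a few followed the mice in which Egr1 was highest rather than the genotype. They were picked after their values were seen, and the likeness was not tested. Rasd1, a Ras-like G protein induced by glucocorticoids and activity, was at 74.5 cpm in DJ-1+/+ replicate 4 and 68.2 cpm in DJ-1-/- replicate 5, and at 6.20 to 32.0 cpm in the other 7 mice. Nptx2, a secreted pentraxin that clusters AMPA receptors, was at 67.7 and 49.7 cpm in the same mice and at 9.01 to 29.9 cpm in the others. Camk2a, the calcium-dependent kinase of forebrain excitatory synapses, was at 269.7 and 270.9 cpm there and at 108 to 205 cpm in the others. Within genotypes the variance of Rasd1 was 29.0 times that from counting and the variance of Nptx2 18.1 times.

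Relatives of the members showed patterns of their own. Egr3 stood at 10.7, 13.6, 2.33 and 23.7 cpm in the DJ-1+/+ animals, and at 10.01, 45.5, 19.6, 8.27 and 25.3 cpm in the DJ-1-/- animals, with the highest level in DJ-1-/- replicate 2, the only DJ-1-/- mouse with counts of Egr2. Nr4a2, which unlike Nr4a1 is a lineage factor of dopaminergic neurons, was at 136 cpm in DJ-1+/+ replicate 2 and 127 cpm in DJ-1-/- replicate 4, at 125 cpm in DJ-1-/- replicate 5, which had the highest level of Nr4a1, and at 46.5 cpm in DJ-1+/+ replicate 3.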
